A study of Mus musculus with 15 samples.

Results

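The 41 genes described here encode enzymes that oxidise fatty acids, proteins that coat lipid droplets or release fat from them, and 3 regulators that peroxisome proliferator-activated receptors (PPARs) induce. They were taken by symbol from a list and matched to the array through the RefSeq identifier of each probe, keeping the brightest probe of each gene. All 41 had a probe, and 37 of them were among the 22557 genes whose hemibrain signal was high enough to test. RNA came from hemibrains of male C57BL/6j mice that ate 1 of 3 diets of equal caloric content from 3 weeks of age for 24 weeks. The diets differed in how much n-3 they held for each part of n-6 fatty acid. It was 7:1 in the n-3 enriched diet (ERD), 1:1 in the balanced diet (BLD) and 1:6 in STD, the standard diet. There were 5 arrays for every diet, and each compared 1 hemibrain, labelled with Cy5, with a reference RNA pooled from 11 mouse cell lines, labelled with Cy3. All values below are log2 ratios of hemibrain over reference unless said otherwise, so 0 means equal signal and a difference of 1 a doubling. Every dye was used the same way on all arrays, so the labelling itself did not differ between diets. Signal in a channel can still differ between arrays, and values for each channel alone are given below.

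Fatty acids enter mitochondria as carnitine esters, through carnitine palmitoyltransferase 1 on the outer membrane, the translocase Slc25a20 and carnitine palmitoyltransferase 2 on the inner membrane. Inside, each turn of the beta-oxidation spiral removes an acetyl unit through a dehydrogenase, a hydratase, a second dehydrogenase and a thiolase, and the electrons of the first step pass to the electron transfer flavoprotein. Peroxisomes run their own spiral on very long and branched chains, and also carry out the last step in making docosahexaenoic acid, the main n-3 fatty acid of the brain. The adult brain burns mainly glucose, and its fatty acid oxidation is largely astrocytic. Long-chain n-3 fatty acids are ligands of PPARs, whose classical targets include Angptl4, Pdk4, Cpt1a, Plin2 and the acyl-CoA thioesterase Acot1.

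Hadha and Hadhb encode the alpha and beta subunits of the mitochondrial trifunctional protein, and Hadha had the lowest p of the 37 tested genes in both comparisons with STD, although it did not pass the test. Their genes lie head to head on chromosome 5, and 272 bases separate their annotated starts. That interval is shown because both genes are read outward from it. It is given from RefSeq on the plus strand of chr5:30154981-30155252 (GRCm38.p6), with GC boxes (GGGCGG) in capitals.
Hadha-Hadhb interval: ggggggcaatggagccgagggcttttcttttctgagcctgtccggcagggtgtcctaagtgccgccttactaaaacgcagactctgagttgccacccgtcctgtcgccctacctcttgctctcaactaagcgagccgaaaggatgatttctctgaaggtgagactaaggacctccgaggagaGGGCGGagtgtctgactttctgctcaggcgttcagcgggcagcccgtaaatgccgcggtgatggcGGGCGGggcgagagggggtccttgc
Its GC content was 60.3%. It held 2 GC boxes and, on either strand, 0 matches to CCAAT, to the hormone receptor motif AGGTCA, to the direct repeat AGGTCANAGGTCA that PPARs bind, and to the E box CACGTG.

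RefSeq promoter windows, from 250 bases before a start to 50 bases after it, were at hand for 33 of the 41 genes. A GC box on either strand occurred in 26 of the 33 (78.8%), against 38.2% of 27025 genes with such windows. CCAAT occurred in 16 of the 33 (48.5%), against 41.1% of all genes. The AGGTCA motif, which is also contained in the direct repeat, occurred in 7 of the 33 (21.2%), against 18.1%, and those 7 were Acadm, Acadvl, Cpt1a, Cpt1c, Echs1, Plin2 and Scp2. The full direct repeat occurred in 0 of the 33 windows, against 0.0481% of all genes, and CACGTG in 2 (6.06%), against 8.09%. These matches describe the letters of short windows and not sites in use. Only 13 of the 27025 genes held the full direct repeat, so its absence from 33 windows says nothing of PPAR binding at these genes.

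Before the diets are compared, the ratio to the reference shows where these genes stand in hemibrain. Of the 37 tested genes, 10 (27%) had a mean ratio above 0 over the 15 arrays, against 58.8% of all genes tested. Of the 15 genes grouped here as the mitochondrial spiral, 14 lay below the reference, and the median of the 15 was -0.67. On every array, 9 of the 15 were below 0. Acat1, the mitochondrial acetoacetyl-CoA thiolase, was the exception at 0.10. All 3 electron transfer flavoprotein genes were below 0 as well.

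The peroxisomal genes stood on the other side. Of 6 tested, 5 had mean ratios above 0. They were Abcd2 and Abcd3, which carry acyl-CoAs into the peroxisome, the oxidase Acox3 for branched chains, the multifunctional enzyme Hsd17b4, and the thiolase Acaa1a. Scp2, whose product includes a thiolase and a sterol carrier protein, was below at -0.53. The reference is a pool of proliferating cell lines, so these ratios place each gene against those cells and say nothing of its absolute amount. No test was made of them.

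The ratio was highest for Acot7, a long-chain acyl-CoA thioesterase abundant in neurons, at 2.02, and next for Cpt1c, the neuronal carnitine palmitoyltransferase 1 isoform, at 1.79. Cpt1a, the isoform that controls entry of fatty acids into mitochondria in liver and astrocytes, lay at -1.25. Among lipid droplet coat genes Plin4 was above the reference at 0.67, while Plin3 and Plin2 were below it at -1.61 and -2.24. Within a diet the median SD of the 37 genes was 0.25, close to 0.26 over all genes tested.

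**Figure D1:**
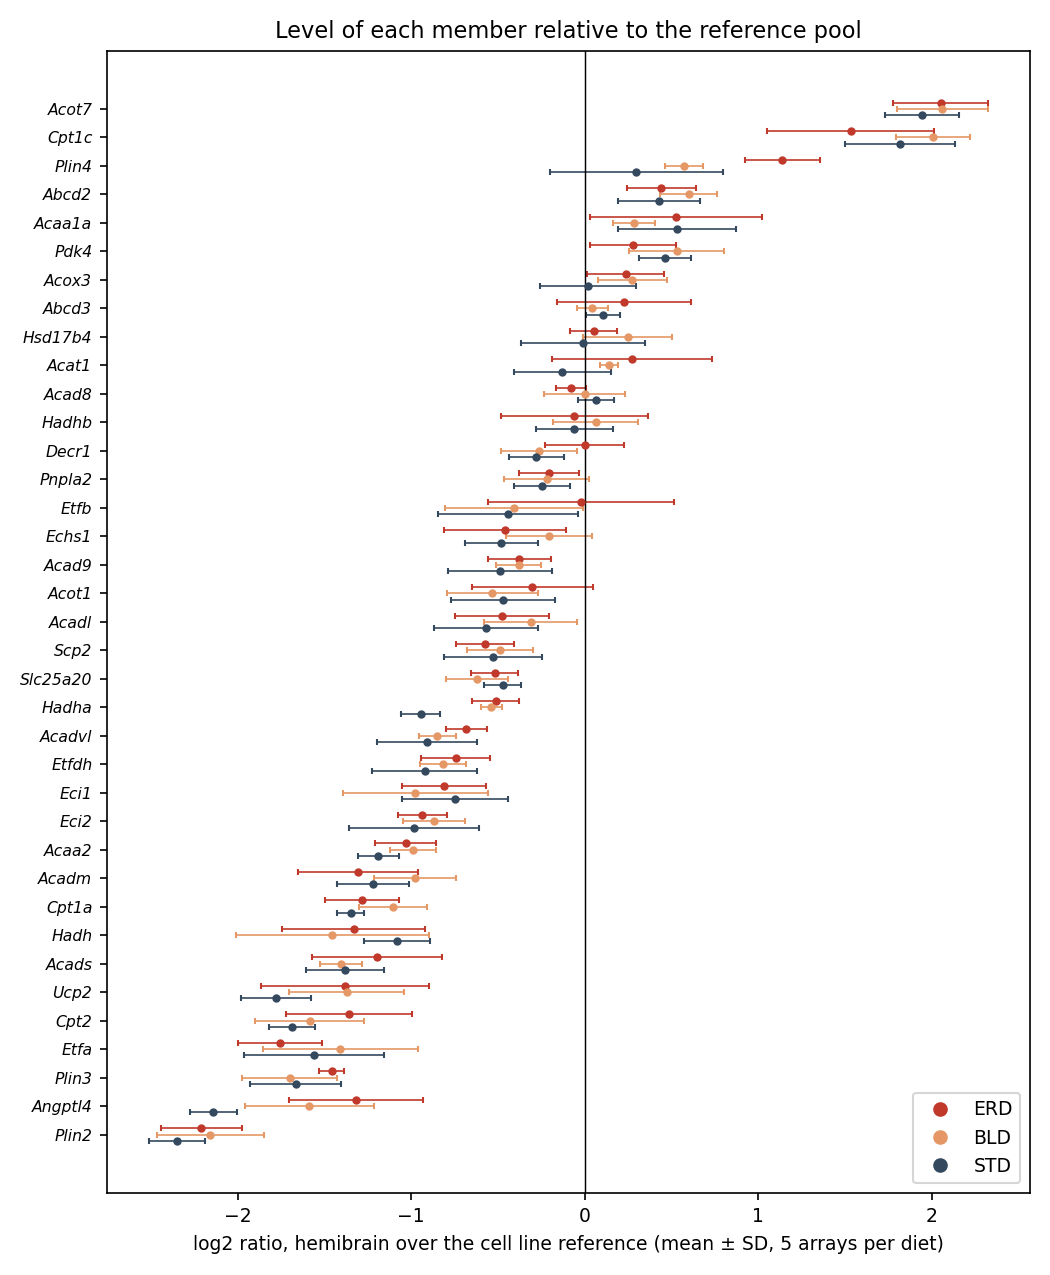
Mean log2 ratio of hemibrain over the cell line reference with SD, for each tested gene in ERD, BLD and STD (5 arrays each), ordered by the mean over all arrays. Acot7 and Cpt1c lie farthest above 0 and Plin2 farthest below, and the diets overlap within their SDs for most genes.

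The other 4 genes were too dim to test. Crat, which exchanges acetyl groups with carnitine, was well above background on 0 of 15 arrays, and Lipe, the hormone-sensitive lipase, on 2. Acot2, the mitochondrial thioesterase, was above background on 3 arrays and Ehhadh, the peroxisomal bifunctional enzyme, on 4. Another 5 were tested although they were not above background on every array. Slc25a20 was above it on 6 arrays, Acad8 and Acads on 8 each, and Abcd2 and Ucp2 on 14 each. Slc25a20 was above background on 0 ERD, 2 BLD and 4 STD arrays. It thus passed the signal filter through BLD and STD arrays only, and its ERD values come from signal not above background. No difference of ERD from the other diets, fold or bound is given for it. Ehhadh was above background on 0 ERD, 1 BLD and 3 STD arrays, Acot2 on 0, 1 and 2, and Lipe on 1, 1 and 0, too few to give a difference between diets. Acot1 and Acot2 are neighbouring, closely similar copies, and hybridisation of each to the other's probe was not tested.

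In ERD against STD, which asks what the largest shift toward n-3 fatty acids did to these genes, none of the 37 passed the test. Hadha, Plin4 and Angptl4 came closest, each higher on all 5 ERD arrays than on any STD array. Of the 37 genes, 0 had an adjusted p under 0.05 in limma's test with Benjamini-Hochberg adjustment over 22557 genes, against 0.217% of all genes. At an unadjusted p under 0.05 there were 4 (10.8%), against 14.6% of all genes, a share no larger than that of the array as a whole. Non-overlapping higher values occurred in 3 of 37 genes (8.11%), against 1.96% of all genes. Ratios were higher in 27 of 37 genes (73.0%), against 52.9% of all genes, with a median difference of 0.11, against 0.02. When arrays were centred on their medians in place of loess, 19 of 37 were higher, against 46.3% of all genes.

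Hadha carries the hydratase and long-chain hydroxyacyl-CoA dehydrogenase activities of the trifunctional protein. Its log2 ratios were -0.64, -0.55, -0.35, -0.40 and -0.63 on the ERD arrays, -0.60, -0.48, -0.60, -0.54 and -0.47 on the BLD arrays, and -0.84, -0.94, -1.05, -0.83 and -1.07 on the STD arrays. Every ERD and every BLD array lay above every STD array, and ERD and BLD overlapped throughout. The ERD mean was -0.51 ± 0.13 and the STD mean -0.95 ± 0.11 (SD, n = 5 each), a difference of 0.43 (SE 0.09, 1.35-fold; limma adjusted p = 0.0746). Within the 3 slides that held both diets, 1 array of each, the difference was 0.39, 0.50 and 0.21. Its SD within diets, 0.11, was the smallest of the 37 genes.

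Hadhb, the thiolase subunit of the same complex, varied more between arrays. Its ratios were -0.61, -0.31, 0.05, 0.07 and 0.51 on the ERD arrays, 0.36, 0.05, -0.20, 0.26 and -0.15 on the BLD arrays, and -0.03, 0.04, 0.11, 0.04 and -0.45 on the STD arrays. The ERD arrays spanned the whole range of the other diets. The difference was 0.00 (SE 0.19, limma adjusted p = 0.999) in ERD against STD. Whether the 2 subunits differed from each other in their response was not tested.

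Plin4 encodes perilipin 4, a coat protein of nascent lipid droplets best known from adipocytes. Its ratios were 1.37, 1.30, 1.18, 0.86 and 0.99 on the ERD arrays, 0.60, 0.42, 0.70, 0.52 and 0.62 on the BLD arrays, and 0.86, 0.73, 0.25, -0.30 and -0.06 on the STD arrays. The ERD arrays lay above all others, although the lowest of them met the highest STD array within 2 decimals, and STD was the most scattered diet. The ERD mean was 1.14 ± 0.22 and the STD mean 0.30 ± 0.50 (SD, n = 5 each). They differed by 0.84 (SE 0.19, 1.795-fold; limma adjusted p = 0.0853), and within slides by 0.57, 0.32 and 1.29. On the scanner software's own processed log ratio it was 1.154, with a limma adjusted p of 0.0434.

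Angptl4, a secreted inhibitor of lipoprotein lipase and a classical PPAR target, gave -0.81, -0.996, -1.52, -1.64 and -1.62 on the ERD arrays, -1.61, -1.51, -1.04, -1.71 and -2.07 on the BLD arrays, and -1.95, -2.25, -2.13, -2.09 and -2.28 on the STD arrays. The ERD arrays all lay above the STD arrays, and ERD replicates 1 and 2 were the highest of their diet. The ERD mean was -1.32 ± 0.39 and the STD mean -2.14 ± 0.14 (SD, n = 5 each), a difference of 0.82 (SE 0.19, 1.77-fold; limma adjusted p = 0.0892). Within slides it was 1.26, 0.42 and 0.47. On the processed log ratio it was 1.23 (limma adjusted p = 0.0405).

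Of the adipocyte markers, Adipoq, Cidec, Plin1 and Fabp4 were above background on 0 of 15 arrays, and Retn on 15. Retn had its highest ratios on ERD replicate 4 and BLD replicates 2 and 3, the arrays of slide 1, at 2.72, 2.85 and 2.55. Over all genes tested, 52.9% were higher in ERD than in STD and 14.6% had an unadjusted p under 0.05 in limma's test. Oligodendrocyte markers were lower in ERD for 8 of 9 genes. Their array medians ran from -0.74 to 0.13 in ERD and from 0.00 to 0.15 in STD. The -0.74 was on ERD replicate 1, and the next lowest ERD array had -0.21. Astrocyte markers were lower for 8 of 10 genes. At an unadjusted p under 0.05, 3 were lower and 1 higher. Their array medians ran from -0.23 to 0.28 in ERD and from -0.01 to 0.32 in STD. Neuron markers were lower for 7 of 9, with array medians from -0.28 to 0.23 in ERD and from -0.09 to 0.34 in STD. The part of these markers in the differences was not tested. In whole hemibrain RNA, fewer cells of a type and less RNA per cell cannot be told apart.

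**Figure D2:**
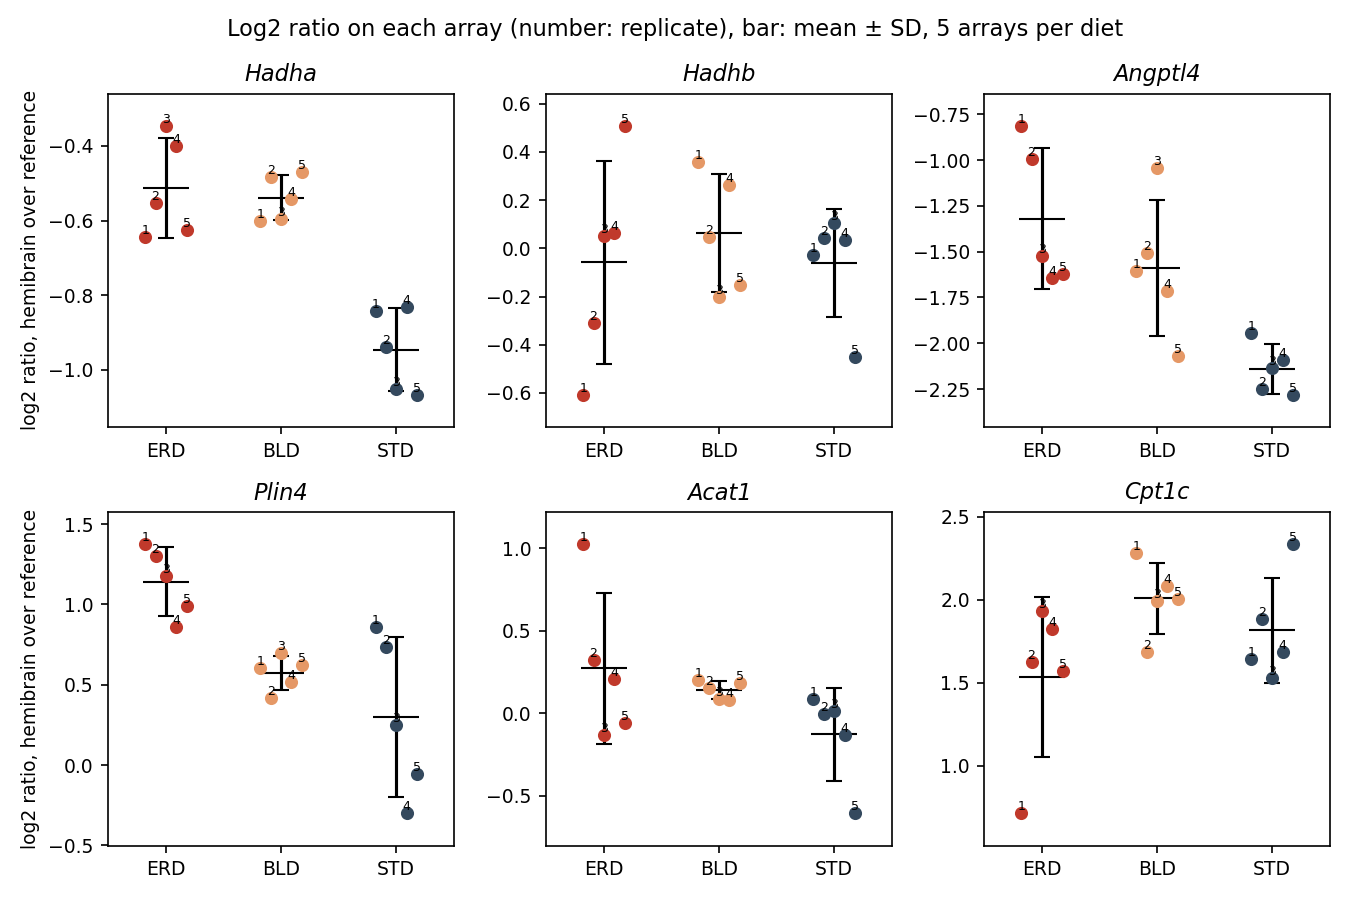
Log2 ratio of hemibrain over reference on each array (points, numbered by replicate) for 6 genes in ERD, BLD and STD, with the mean and SD of 5 arrays as bars. Hadha sits apart from STD in both other diets, Plin4 is highest in ERD, and Hadhb, Acat1 and Cpt1c overlap between diets.

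Among other enzymes of the spiral, Acat1 showed a difference in ERD against STD of 0.40 (SE 0.19, limma adjusted p = 0.341). Its ERD ratios were 1.02, 0.32, -0.13, 0.21 and -0.06, its BLD ratios 0.20, 0.15, 0.09, 0.08 and 0.18, and its STD ratios 0.09, -0.00, 0.01, -0.13 and -0.61. ERD replicate 1 was the highest of all arrays and STD replicate 5 the lowest, and without that ERD array the difference was 0.21.

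The other 10 genes grouped here with the spiral are not described by array. They were the acyl-CoA dehydrogenases Acadl, Acadvl, Acads, Acad8 and Acad9, the hydratase Echs1, the hydroxyacyl-CoA dehydrogenase Hadh, the isomerases Eci1 and Eci2 and the thiolase Acaa2. They differed by -0.25 to 0.23 in ERD against STD, by -0.38 to 0.27 in BLD against STD and by -0.25 to 0.21 in ERD against BLD, and 0 of them had an unadjusted p under 0.05 in limma's test in any of the 3. Etfdh, the oxidoreductase that passes electrons from the flavoprotein to ubiquinone, differed by 0.18, 0.10 and 0.07 in the same order.

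Etfb, the beta subunit of the electron transfer flavoprotein, gave 0.90, 0.02, -0.32, -0.32 and -0.38 on the ERD arrays, -1.03, -0.09, -0.04, -0.52 and -0.38 on the BLD arrays, and 0.03, -0.62, -0.09, -0.59 and -0.94 on the STD arrays. The ERD array of replicate 1 stood well above all others. The ERD against STD difference of 0.42 (SE 0.26, limma adjusted p = 0.466) was 0.19 without it. A second Etfb probe above background on all arrays gave 0.08.

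Cpt2, the inner-membrane carnitine palmitoyltransferase, behaved alike. Its ratios were -0.73, -1.63, -1.38, -1.56 and -1.48 on the ERD arrays, -1.66, -1.05, -1.63, -1.83 and -1.77 on the BLD arrays, and -1.76, -1.67, -1.59, -1.54 and -1.87 on the STD arrays. Its difference of 0.33 (SE 0.18, limma adjusted p = 0.400) was 0.17 without ERD replicate 1, the array with the fewest spots above background, 17720.

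In BLD against STD, which asks whether balancing the 2 fatty acid classes was enough to move these genes, none of the 37 passed the test either, and Hadha again came closest. Adjusted p was under 0.05 for 0 of 37 genes in limma's test, against 0.00887% of all genes, and unadjusted p for 2 (5.41%), against 10.8%. Non-overlapping higher values occurred in 1 gene, Hadha (2.70%), against 2.15% of all genes. Ratios were higher in 28 of 37 genes (75.7%), against 60.6% of all genes, and the median difference was 0.11, against 0.05. With median centring, which moved the median of all genes to 0.18, 35 of 37 were higher, against 80.9% of all genes. Erythrocyte markers were higher in BLD than in STD for 3 of 3 genes, with array medians from -0.35 to 1.53 in BLD and from -0.25 to 0.12 in STD. Astrocyte markers were lower for 7 of 10, with array medians from -0.14 to 0.18 in BLD and from -0.01 to 0.32 in STD. Choroid plexus markers were lower for 6 of 7, with array medians from -0.36 to 0.48 in BLD and from -0.11 to 0.42 in STD. Markers of meninges and fibroblasts were higher for 5 of 6, with array medians from -0.45 to 0.26 in BLD and from -0.14 to 0.06 in STD. The part of these markers in the differences was not tested.

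The BLD mean of Hadha was -0.54 ± 0.06, against -0.95 ± 0.11 in STD (SD, n = 5 each), a difference of 0.41 (SE 0.09, 1.33-fold; limma adjusted p = 0.182), and 0.36 within the 1 slide that held both diets. Angptl4 averaged -1.59 ± 0.37 in BLD and -2.14 ± 0.14 in STD (SD, n = 5 each), a difference of 0.55 (SE 0.19, limma adjusted p = 0.404), and 0.02 within that slide. BLD replicate 5 fell among the STD arrays.

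For both genes the 2 channels differed in opposite directions between BLD and STD. With Cy5 alone, Hadha differed by 0.17 in BLD against STD and Angptl4 by 0.22, while in Cy3, where every array holds the same reference RNA, they differed by -0.18 and -0.23. In ERD against STD the Cy5 differences were 0.37 for Hadha, 0.71 for Angptl4 and 0.70 for Plin4, and the Cy3 differences were 0.07, -0.00 and -0.09. Over the whole array, Cy3 differed at an unadjusted p under 0.05 for 15.7% of genes between BLD and STD and for 1.99% between ERD and STD. The look at Cy3 alone was chosen after the values were seen.

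**Figure D3:**
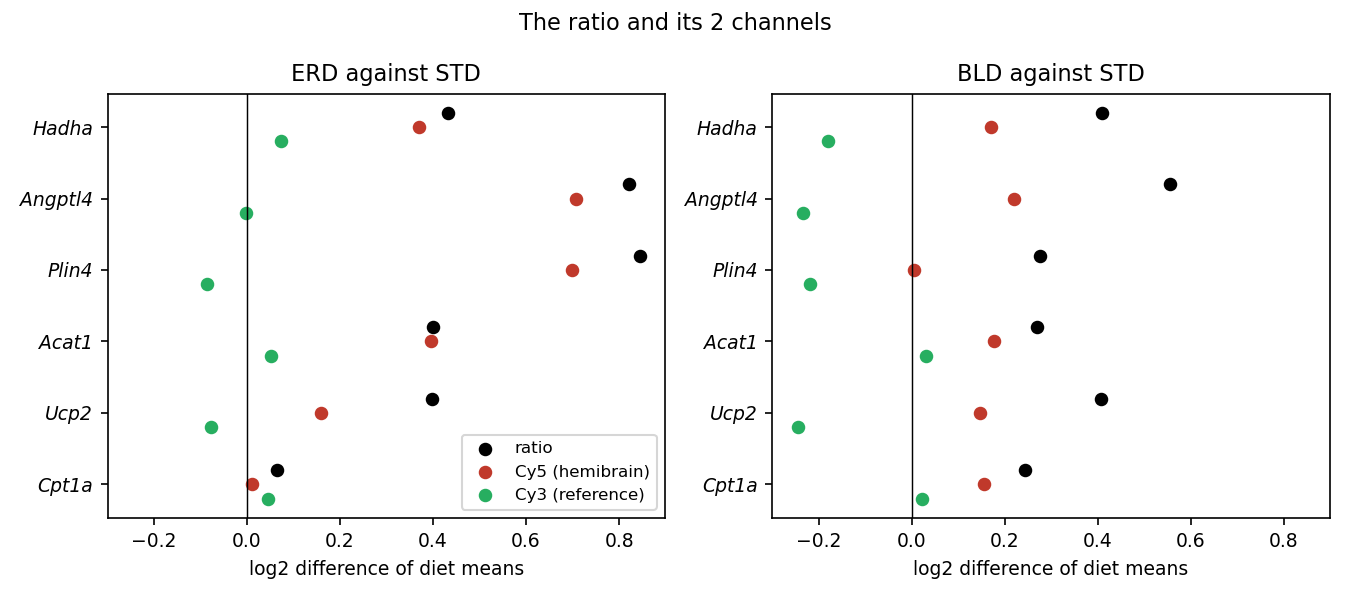
Difference of diet means on the log2 scale for 6 genes, as the ratio (black), in the hemibrain channel Cy5 alone (red) and in the reference channel Cy3 alone (green), each normalised separately. The left panel is ERD against STD, the right panel BLD against STD. In BLD against STD the reference channel lies at -0.18 for Hadha and -0.23 for Angptl4, and in ERD against STD it lies within 0.09 of 0.

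Ucp2, a mitochondrial carrier induced by fatty acids, gave -1.48, -1.90, -0.76, -1.02 and -1.75 on the ERD arrays, -1.39, -1.11, -1.35, -1.09 and -1.92 on the BLD arrays, and -1.87, -1.97, -1.84, -1.78 and -1.44 on the STD arrays. BLD replicate 5 and STD replicate 5 crossed over. The BLD against STD difference was 0.41 (SE 0.21, limma adjusted p = 0.483), and -0.14 within the shared slide.

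Cpt1a gave -1.28, -1.64, -1.153, -1.25 and -1.09 on the ERD arrays, -0.86, -1.06, -1.21, -1.03 and -1.37 on the BLD arrays, and -1.36, -1.34, -1.39, -1.22 and -1.43 on the STD arrays. BLD replicates 1, 2, 3 and 4 lay above every STD array and replicate 5 among them. The BLD against STD difference was 0.24 (SE 0.12, limma adjusted p = 0.471), and -0.15 within the shared slide. In ERD against STD it was 0.07.

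Of the peroxisomal genes, Acaa1a, Abcd2, Abcd3 and Scp2 differed by -0.04 to 0.12 in ERD against STD, by -0.25 to 0.17 in BLD against STD and by -0.16 to 0.24 in ERD against BLD. A second, dimmer Scp2 probe, above background on all 15 arrays, disagreed with the first, at -0.48, -0.19 and -0.30 in the same order. Acox3 gave -0.09, 0.39, 0.41, 0.38 and 0.09 on the ERD arrays, -0.06, 0.28, 0.35, 0.48 and 0.31 on the BLD arrays, and 0.04, 0.31, -0.15, 0.25 and -0.35 on the STD arrays. STD replicate 5 was the lowest array, and the diets overlapped. The BLD against STD difference was 0.26 (SE 0.15, limma adjusted p = 0.523), or 0.16 without STD replicate 5, while its second probe gave 0.00. Hsd17b4, which acts in the peroxisomal step that forms docosahexaenoic acid, gave 0.08, 0.16, 0.20, -0.09 and -0.10 on the ERD arrays, 0.68, 0.25, 0.04, 0.20 and 0.07 on the BLD arrays, and -0.14, 0.24, -0.10, 0.44 and -0.48 on the STD arrays. BLD replicate 1 was the highest array and STD replicate 5 the lowest. The difference was again 0.26 (SE 0.16, limma adjusted p = 0.564), but 0.15 without BLD replicate 1 and 0.14 without STD replicate 5.

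Acot7 gave 1.59, 2.08, 2.31, 2.12 and 2.16 on the ERD arrays, 1.70, 2.03, 1.97, 2.22 and 2.39 on the BLD arrays, and 1.80, 1.86, 2.04, 1.76 and 2.28 on the STD arrays. The diets overlapped almost fully, with a BLD against STD difference of 0.12 (SE 0.16, limma adjusted p = 0.815). With 1 array left out it lay between 0.033 (without BLD replicate 5) and 0.21 (without BLD replicate 1), and was 0.075 without BLD replicate 4, 0.069 without STD replicate 4 and 0.198 without STD replicate 5. Hadhb differed by 0.12 (SE 0.19, limma adjusted p = 0.838), between 0.024 (without STD replicate 5) and 0.188 (without BLD replicate 3), with 0.049 without BLD replicate 1 and 0.072 without BLD replicate 4. Plin2, the coat protein of most droplets outside fat tissue, gave -1.86, -2.45, -2.14, -2.21 and -2.38 on the ERD arrays, -2.51, -1.75, -2.02, -2.09 and -2.42 on the BLD arrays, and -2.29, -2.59, -2.15, -2.34 and -2.37 on the STD arrays. BLD replicate 2 was the highest array and STD replicate 2 the lowest. The difference was 0.19 (SE 0.15, limma adjusted p = 0.654), or 0.09 without BLD replicate 2.

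The share of higher genes was smaller without 1 of the STD arrays. STD replicate 5 had the lowest median over the 37 genes, -0.28, expressed relative to each gene's mean, against -0.11 to 0.02 on the other STD arrays. For the mitochondrial spiral its median was -0.37, for the flavoprotein genes -0.65 and for the peroxisomal genes -0.35, all the lowest of 15 arrays. Without it, 59.5% of the 37 genes were higher in ERD than in STD, against 52.1% of all genes. Their median difference was 0.05, against 0.01 over all genes. In BLD against STD the median was then 0.04, against 0.05 over all genes.

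**Figure D4:**
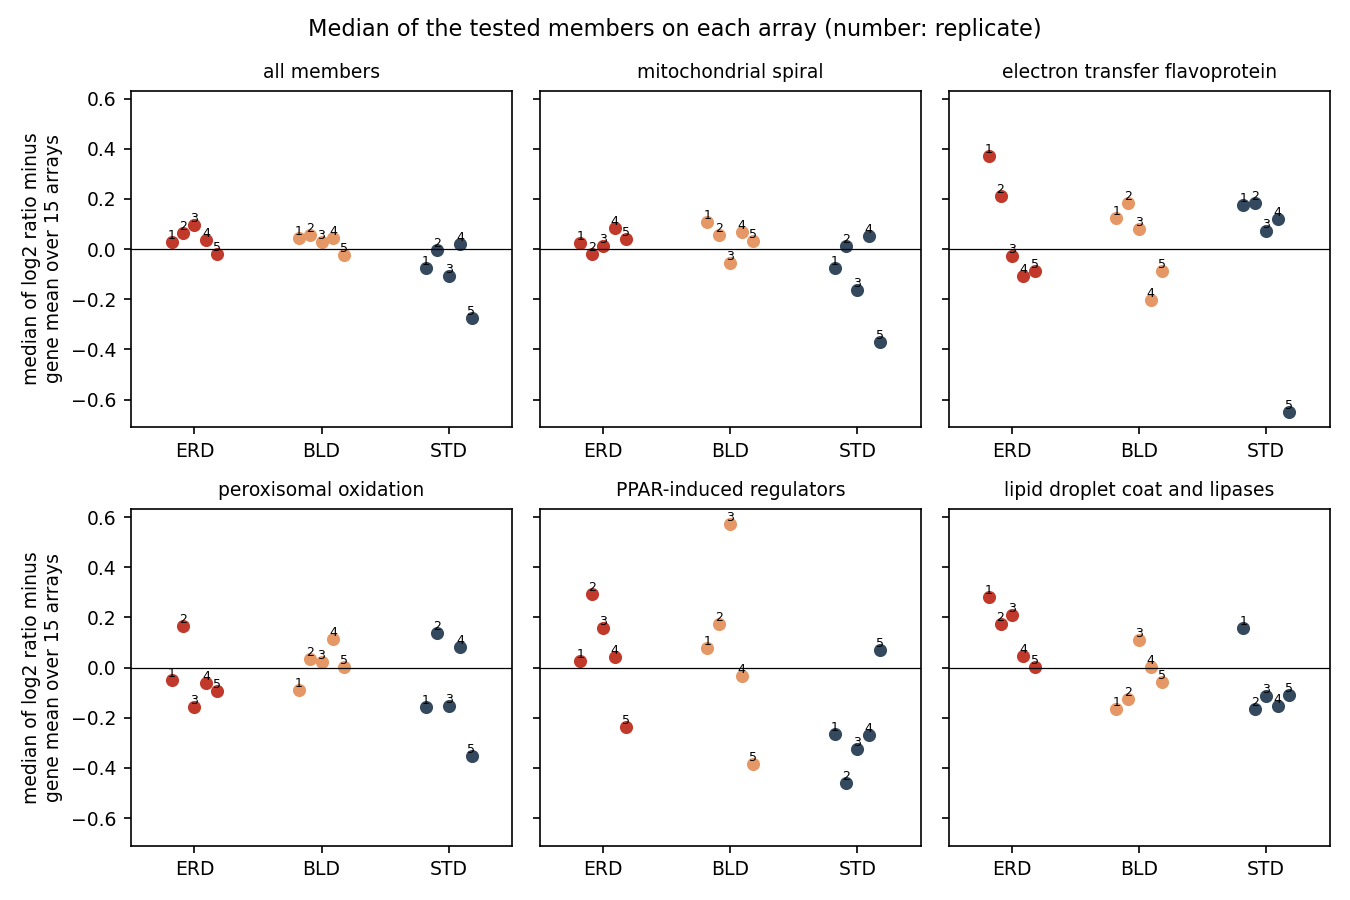
Median over the tested genes of the log2 ratio minus each gene's mean over 15 arrays, for every array (points, numbered by replicate) in ERD, BLD and STD, for all 37 genes and 5 functional groups. STD replicate 5 is the lowest point for all genes (-0.28), the mitochondrial spiral (-0.37), the flavoprotein genes (-0.65) and the peroxisomal genes (-0.35).

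The differences also moved with slide. Of the 8 slides, 3 held both ERD and STD and 1 held both BLD and STD. When slide was a fixed block, the median difference was 0.003 in ERD against STD and 0.006 for BLD, while Hadha kept 0.38 (limma adjusted p = 0.467) and 0.37 (limma adjusted p = 0.915). Plin4 and Angptl4 had 0.78 and 0.66 in ERD against STD in that fit. With scan day as a block, where no STD array was scanned on the second day, Hadha had 0.42 (limma adjusted p = 0.116) against STD in ERD and 0.38 (limma adjusted p = 0.818) in BLD. With slide as a random block, Hadha passed the test in ERD against STD, at 0.43 with a limma adjusted p of 0.0467.

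In ERD against BLD, which compares the 2 diets richer in n-3 fatty acids, the genes split evenly. Ratios were higher in 19 of 37 (51.4%), against 41.9% of all genes, with a median difference of 0.01, against -0.04. With median centring, which moved the median of all genes to -0.20, only 2 of 37 were higher, against 16.7% of all genes. Adjusted p was under 0.05 for 0 of 37 genes in limma's test, as for 0 of all genes, and unadjusted p for 2 (5.41%), against 10.4%. Non-overlapping higher values occurred in 1 gene, Plin4 (2.70%), against 0.35% of all genes. Oligodendrocyte markers were lower in ERD than in BLD for 7 of 9 genes. Their array medians ran from -0.74 (ERD replicate 1, with -0.21 the next lowest) to 0.13 in ERD and from -0.08 to 0.20 in BLD. Endothelial markers were likewise lower for 7 of 9 genes, with array medians from -0.16 to 0.08 in ERD and from -0.001 to 0.18 in BLD. Ependymal markers were lower for 4 of 5. Erythrocyte markers were lower for 3 of 3, with array medians from -0.51 to -0.06 in ERD and from -0.35 to 1.53 in BLD. The part of these markers in the differences was not tested.

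Plin4 averaged 1.14 ± 0.22 in ERD and 0.57 ± 0.11 in BLD (SD, n = 5 each), a difference of 0.57 (SE 0.19, limma adjusted p = 0.389). Within the 3 slides with both diets it was 0.30, 0.77 and 0.36.

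Plin3, a coat protein that moves to droplets from the cytosol, gave -1.43, -1.36, -1.45, -1.55 and -1.51 on the ERD arrays, -2.16, -1.61, -1.42, -1.64 and -1.68 on the BLD arrays, and -1.48, -2.03, -1.68, -1.79 and -1.36 on the STD arrays. BLD replicate 1 was the lowest array, and the ERD arrays were the tightest. The ERD against BLD difference was 0.24 (SE 0.14, limma adjusted p = 0.569), or 0.13 without BLD replicate 1. Pnpla2, the adipose triglyceride lipase, differed by 0.02.

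Cpt1c ran the other way. Its ratios were 0.71, 1.63, 1.93, 1.82 and 1.57 on the ERD arrays and 2.28, 1.69, 1.99, 2.08 and 2.004 on the BLD arrays, with 1.65, 1.89, 1.53, 1.69 and 2.33 on the STD arrays. ERD replicate 1 was far below every other array. The difference of -0.48 (SE 0.21, limma adjusted p = 0.468) was -0.27 without that array, and a second probe above background on all arrays gave -0.50. Against STD the 2 probes differed more. The second gave -0.74 in ERD and -0.24 in BLD, where the first gave -0.28 and 0.19.

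Acadm, the medium-chain acyl-CoA dehydrogenase, gave -1.58, -1.69, -1.07, -1.35 and -0.86 on the ERD arrays, -0.81, -0.90, -1.34, -0.76 and -1.08 on the BLD arrays, and -1.28, -0.97, -1.46, -1.04 and -1.35 on the STD arrays. The 3 diets overlapped, with a difference of -0.33 (SE 0.17, limma adjusted p = 0.510).

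Decr1 reduces double bonds of polyunsaturated fatty acids in the course of the spiral, so that their oxidation can go on. It gave 0.26, 0.13, -0.21, 0.08 and -0.26 on the ERD arrays, -0.66, -0.15, -0.17, -0.21 and -0.13 on the BLD arrays, and -0.29, -0.12, -0.34, -0.14 and -0.51 on the STD arrays. BLD replicate 1 was the lowest array. The ERD against BLD difference of 0.27 (SE 0.13, limma adjusted p = 0.514) was 0.17 without BLD replicate 1, and its dimmer second probe gave -0.05.

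Etfa, the alpha subunit of the flavoprotein, gave -1.68, -1.83, -1.45, -2.11 and -1.71 on the ERD arrays, -0.87, -1.39, -1.95, -1.09 and -1.75 on the BLD arrays, and -1.40, -1.37, -1.505, -1.26 and -2.27 on the STD arrays. STD replicate 5 was the lowest array and BLD replicate 1 the highest. The ERD against BLD difference was -0.35 (SE 0.22, limma adjusted p = 0.591), opposite in sign to 0.39 for the tested probe of its partner Etfb. The further Etfb probes gave -0.12 and 0.04. Without BLD replicate 1 the Etfa difference was -0.21.

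Pdk4, a kinase that turns off pyruvate dehydrogenase when fat is burned, gave 0.13, 0.72, 0.23, 0.20 and 0.12 on the ERD arrays, 0.47, 0.36, 0.99, 0.30 and 0.53 on the BLD arrays, and 0.38, 0.31, 0.68, 0.40 and 0.55 on the STD arrays. Of the ERD arrays, 4 lay below every other array and replicate 2 among the highest. The difference was -0.25 (SE 0.15, limma adjusted p = 0.567), or -0.13 without BLD replicate 3.

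Acot1, the cytosolic thioesterase, gave -0.08, 0.17, -0.68, -0.34 and -0.58 on the ERD arrays, -0.40, -0.59, -0.17, -0.65 and -0.86 on the BLD arrays, and -0.94, -0.48, -0.50, -0.14 and -0.30 on the STD arrays. The diets overlapped, and the ERD against BLD difference was 0.23 (SE 0.19, limma adjusted p = 0.684), or 0.11 without ERD replicate 2 and 0.15 without BLD replicate 5. The untested Acot2 gave -0.27, -0.87, -0.53, -0.71 and -0.71 on the ERD arrays, -0.66, -0.56, -0.78, -0.87 and -0.87 on the BLD arrays, and -0.72, -0.82, -0.48, -0.53 and -0.29 on the STD arrays, on most arrays from signal not above background.

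**Figure D5:**
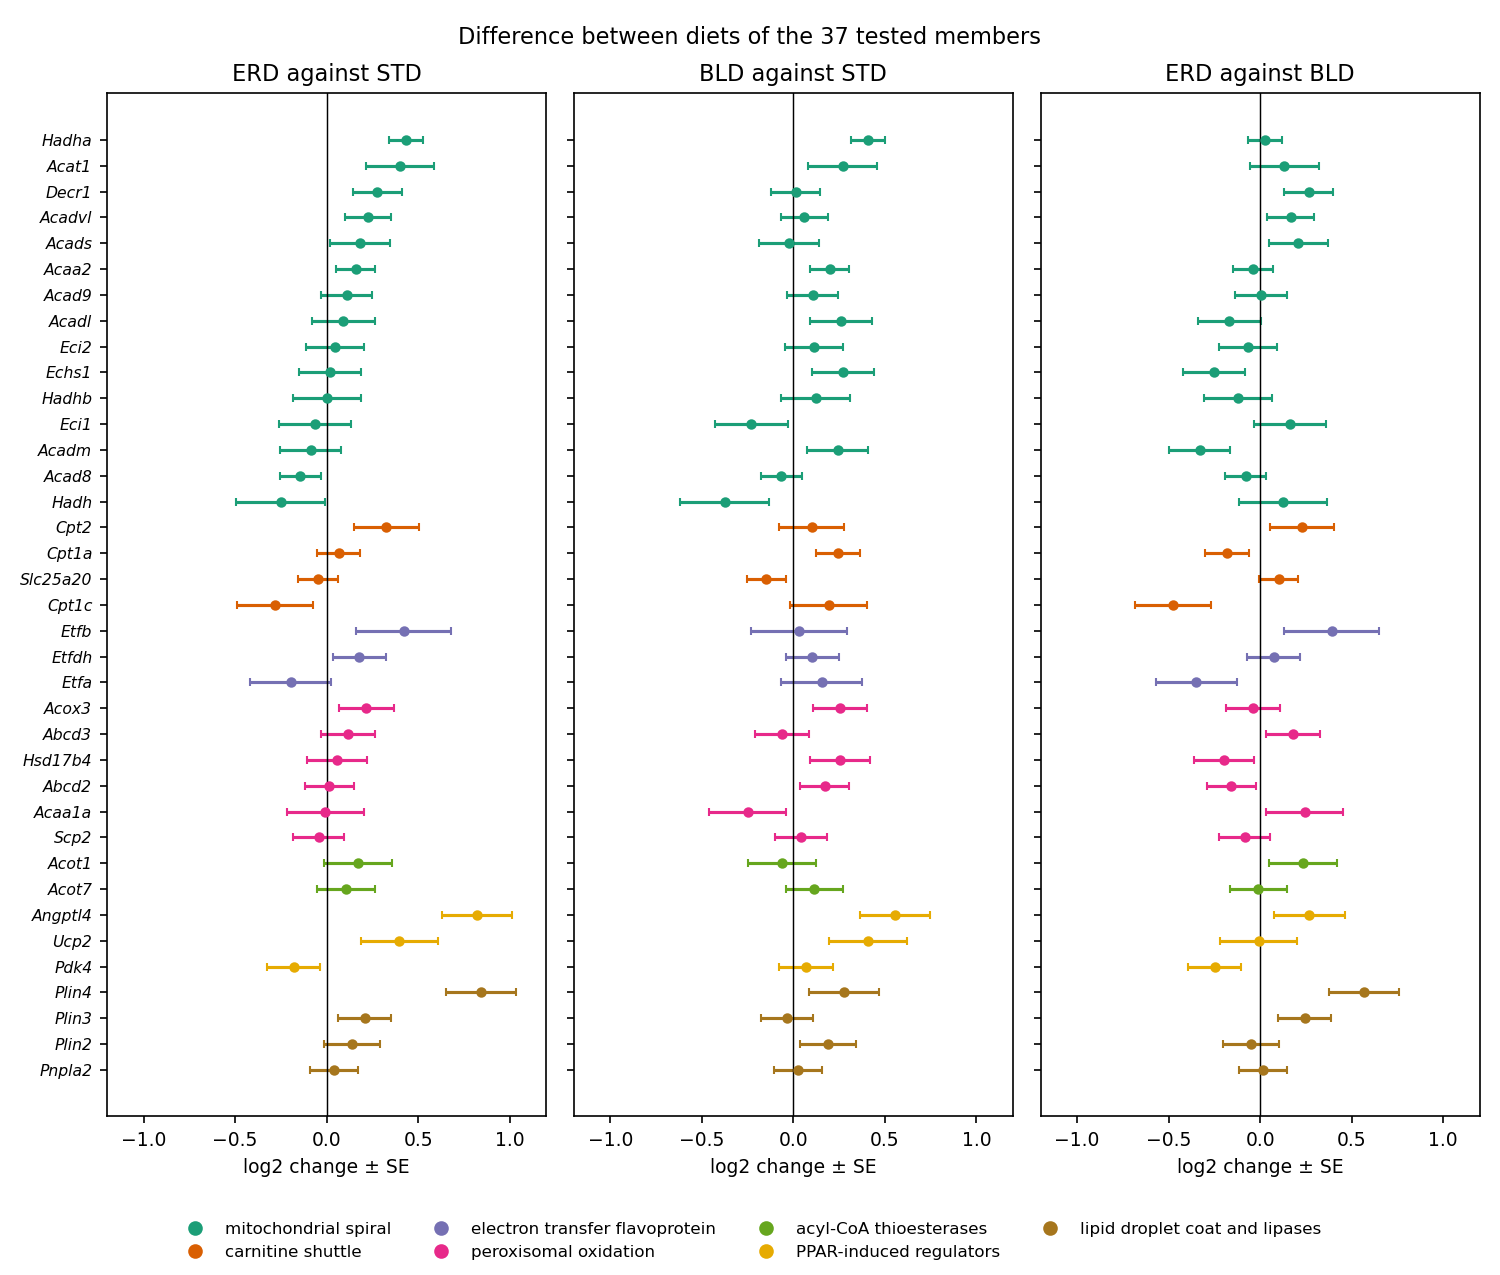
Log2 difference with its standard error for each of the 37 tested genes in ERD against STD, BLD against STD and ERD against BLD, coloured by role (model over 15 arrays, 5 per diet). Hadha stands off 0 in both comparisons with STD, and Plin4 and Angptl4 have the largest differences in ERD against STD, at 0.84 and 0.82.

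Of the 5 classical PPAR targets named at the start, all but Pdk4 were higher in ERD than in STD. The differences were 0.82 for Angptl4, 0.17 for Acot1, 0.14 for Plin2, 0.07 for Cpt1a and -0.18 for Pdk4. Of the 5, the only gene with an unadjusted p under 0.05 in limma's test was Angptl4. Ucp2, counted here among the PPAR-induced regulators, differed by 0.40 (limma adjusted p = 0.397). Among 12 further PPAR-induced genes 9 were tested, and 5 were higher and 4 lower, against 52.9% of all genes higher.

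Over the 3 diets together, limma's F test called 0.0488% of all genes and 0 of the 37. The lowest adjusted values were 0.107 for Hadha, 0.165 for Plin4 and 0.168 for Angptl4.

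Of 99 further genes of these pathways, 90 were tested, and 0 had an adjusted p under 0.05 in limma's test in any of the 3 comparisons. In ERD against STD, 54 were higher and 36 lower, with 9 and 8 at an unadjusted p under 0.05 (18.9% together), against 52.9% higher and 14.6% at that p over all genes. The peroxisomal reductase Pecr was higher by 0.46 (limma adjusted p = 0.121) and the thiolase Acaa1b, a close copy of Acaa1a, by 0.50 (limma adjusted p = 0.148). The seipin gene Bscl2, needed to form lipid droplets, was lower by 0.62 on the log2 scale (limma adjusted p = 0.204). In BLD against STD, 54 were higher and 36 lower, with 8 and 3 at an unadjusted p under 0.05, against 60.6% higher and 10.8% at that p over all genes. In ERD against BLD, 41 were higher and 49 lower, with 2 and 4 at that p, against 41.9% higher and 10.4% over all genes. The droplet dehydrogenase Hsd17b11 had -0.59 (limma adjusted p = 0.270). The receptors Ppara, Ppard and Pparg differed by 0.01, 0.12 and 0.17 in ERD against STD.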

How the data were processed

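Hemibrain RNA was extracted with Trizol and labelled with a 2-colour kit, per the labels' protocols. The deposited scanner files hold median spot and background intensity in both channels, per the file headers from Agilent Feature Extraction 11.5.1.1 (version 10.7 in the submitters' processing notes). The deposited value table holds log10 ratios of Cy5 over Cy3, background-subtracted and dye-normalized by the authors, equal to those in the scanner files within 5e-10. The headers name an older build than RefSeq GRCm38.p6.

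Intensities were corrected by normexp (offset 50), normalized by loess within each array and converted to log2 ratios with limma 3.58.1 in R 4.3.3. Control and flagged spots (0.574%) were left out, and spots of a probe averaged. A probe had to exceed background clearly in Cy5 on 5 or more of 15 arrays and have 8 or more values, which kept 26348 of 55681 probes, with 27656 of the 55681 named by a symbol. The brightest probe stood for a symbol, giving 22557 genes, 8794 of them without a symbol. Spots above background in Cy5 numbered 17720 to 31991 per array, and 0 spots were saturated. The number of arrays limits the precision.

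One linear model over the 15 arrays, 5 per diet from the diet label, gave the 3 comparisons and an F test, with Benjamini-Hochberg adjustment and a threshold of 0.05. P-values measure the spread between these hemibrains. The genes and lists were chosen with earlier results of these data known. Values on every array are given for called genes, the 4 of lowest p in each comparison, the 2 of lowest F p in each role and 12 genes fixed by name. Of the further pathway genes, the 2 of lowest p in a list and comparison could be named, and the 3 receptors were added after their values were seen. Alternatives covered background, normalization, channel, filter, probe choice, slide, scan day and left-out arrays.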

Additional observations from a re-analysis of the deposited data

Results flagged for a closer look

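In 6 of 60 groups of 5 arrays, 1 array lay far from the other 4 by its gap relative to the range of the group, where chance alone gives about 1 in 20. Decr1 was -0.655 on BLD replicate 1, and the nearest BLD array had -0.213. Etfa was -2.268 and Hadhb -0.451 on STD replicate 5, whose nearest STD arrays had -1.505 and -0.028. Cpt2 was -0.728 on ERD replicate 1 and -1.045 on BLD replicate 2, with the nearest arrays of their diets at -1.384 and -1.625. Pdk4 was 0.716 on ERD replicate 2, with the nearest ERD array at 0.232.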

How the results depend on the processing

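Hadha, Plin4 and Angptl4 kept a positive difference in ERD against STD, and Hadha in BLD against STD, under every alternative run, within slides included. Their calls depended on the setting. On the processed log ratio 2 of the 37 genes passed in ERD against STD (Plin4 and Angptl4), without the signal filter 1 (Hadha, adjusted p = 0.0325) and with slide as a random block 1 (Hadha, adjusted p = 0.0467). Hadha's adjusted p in ERD against STD ran over its alternatives from 0.0325 to 0.78. Median centring in place of loess moved the median of all genes to 0.18 in BLD against STD and -0.20 in ERD against BLD. The median of the 37 genes moved to 0.008 in ERD against STD, 0.36 in BLD against STD and -0.32 in ERD against BLD. In ERD against BLD, 5.41% of the 37 were then higher, against 16.7% of all genes. The median in ERD against BLD was 0.15 on the processed log ratio and 0.12 with Cy5 alone, and the median in BLD against STD was 0.007 with Cy5 alone. When slide was a fixed block, the medians against STD were 0.003 for ERD and 0.006 for BLD, and within slide 7 they were -0.043 for ERD and -0.042 for BLD. The cause was not tested.

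Signs reversed for Acox3 in BLD against STD on the processed log ratio (-0.019), for Acot7 (-0.064) and Plin2 (-0.031) in BLD against STD with Cy5 alone, for Plin2 with slide as a fixed block (-0.015), and for Decr1 (-0.12), Acot1 (-0.079) and Plin3 (-0.17) in ERD against BLD under median centring. These 7 were the only changes of sign among the fits of the 23 gene results, and values within 1 slide, which have no test, changed sign in 11 cases.

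Over all genes, ERD against STD called 49 genes, 0 under median centring and without the 3 least correlated arrays, 32 with probes above background on all arrays, 22 with only both diets, 1 with slide fixed, 11 with scan day fixed and 102 with slide random. BLD against STD called 2, 1 on the processed log ratio, with offset 1, under median centring, with only both diets and with scan day fixed, 5 without the filter and with probes above background on all arrays, 9 with trend and robust moderation, 0 with slide fixed and 7 with slide random. ERD against BLD called 0, and 1 with only both diets and with slide fixed. The F test called 11, 1 on the processed log ratio, with offset 1, under median centring, with slide fixed and without the 3 least correlated arrays, 20 with Cy5 alone, 25 with trend and robust moderation, 3 with scan day fixed and 63 with slide random. With 1 array left out in turn the counts ran from 5 to 172 in ERD against STD, from 1 to 10 in BLD against STD, from 0 to 1 in ERD against BLD and from 1 to 24 in the F test. Quantile normalization of average intensity leaves ratios as they are. No paired analysis was possible because the labels give the diets no shared replicate numbers, and the numbers used here only name arrays in order of deposit.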

Other observations

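Cat, the peroxisomal catalase, and the thioesterase Acot3, both among the further pathway genes, had larger differences from STD than any of the 37 genes, in ERD and in BLD, and a wide spread. Cat had log2 ratios of 2.71, 3.65, 2.45, 5.64 and 1.19 on the ERD arrays, 0.63, 5.82, 4.58, 1.58 and 2.10 on the BLD arrays, and 1.04, 0.98, 0.67, 1.05 and 0.25 on the STD arrays. Acot3 had 2.06, 4.32, 2.10, 5.03 and 1.44 on the ERD arrays, 0.50, 4.79, 4.67, 1.59 and 2.48 on the BLD arrays, and 1.096, 0.61, 0.68, 0.93 and 0.35 on the STD arrays. ERD replicates 2 and 4 and BLD replicates 2 and 3 were the highest in both, and the arrays ERD 4, BLD 2 and BLD 3 shared slide 1. Differences in ERD against STD were 2.33 for Cat (limma adjusted p = 0.251) and 2.26 for Acot3 (limma adjusted p = 0.223), while in ERD against BLD they were 0.19 and 0.18. Snap25, a synaptic gene, Itgam, a microglial gene, and the adipocyte marker Retn were picked from the marker lists because their values ran alike, and all 3 were also highest on ERD 4, BLD 2 and BLD 3, at 5.43, 5.36 and 4.10 for Snap25, 4.86, 5.12 and 3.81 for Itgam and 2.72, 2.85 and 2.55 for Retn.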
